A study of Mus musculus with 20 samples.

Results

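Translational efficiency, the amount of ribosome footprints of a gene relative to its RNA, was compared between livers of FVB/N mice given siRNA against Eif3m and livers of mice given a control siRNA, at day 9. The comparison rests on 12 of the 20 libraries of the series: 6 animals, each with 1 RNA-seq library and 1 footprint library (Ribo-seq) from the same liver. The 3 mice of the Eif3m group received lipid nanoparticles with Eif3m siRNA, and the 3 mice of the control group the same particles with a scrambled luciferase sequence, both injected into the tail vein at 0.5 mg/kg, with 1 dose every 5 days, when 6 to 8 weeks old. Both groups therefore share the strain, the carrier and the dose. The particles reach the whole organ and the libraries were made from ground liver, so the values average over all liver cells, and fewer cells of a type and less RNA per cell cannot be told apart.

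A translating ribosome shields a short stretch of mRNA from nuclease, and counting such footprints gives the ribosome load of each message. Dividing it by the RNA of the same liver separates a change in ribosome occupancy from a change in message level. The product of Eif3m is the m subunit of eIF3, the large complex that holds the small ribosomal subunit ready for the initiator tRNA and the mRNA. Hepatocytes, the main liver cells, secrete most plasma proteins and store iron inside shells of ferritin.

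Library totals at day 9 were 4.50 to 6.16 M counts for Eif3m footprints and 7.04 to 7.69 M for control footprints, and 34.7 to 39.02 M for Eif3m RNA and 27.4 to 37.8 M for control RNA. The footprint side is thus the shallower of the pair, and more so with Eif3m siRNA. Albumin, the main product of hepatocytes, took 9.65 to 11.5% of the counts in Eif3m footprints and 13.1 to 15.9% in control footprints. Eif3m footprints were 5.79, 6.19 and 6.85 CPM (counts scaled to a common library size) in the livers given Eif3m siRNA, against 79.2, 74.2 and 75.9 CPM in controls. Its RNA was 9.01, 8.01 and 8.26 CPM, against 82.5, 78.4 and 79.6 CPM in controls. Both assays put the target far below the control range in all 3 animals, and the footprint to RNA ratio of the remaining Eif3m message was 0.762 ± 0.0911, against 0.954 ± 0.00674 in controls (SD, n = 3 each), an efficiency change of -0.34 on the log2 scale (SE 0.17) that did not pass (edgeR, adjusted p = 0.457).

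Few genes changed in efficiency past the test, and most footprint changes went with a change of RNA. Of 11296 genes tested in both assays, 5 rose and 6 fell (edgeR quasi-likelihood test with the animal as a block, Benjamini-Hochberg adjusted p below 0.05), which is 0.0443% and 0.0531% of them, or 0.0974% together. The unadjusted p was below 0.05 for 608 genes that were higher and 680 that were lower, 1288 in all, where 565 would be by chance. Counts of list members at that unadjusted p, given below, stand beside these 608 and 680 of 11296 genes. DESeq2, an alternative fit, called 33 of the 11296 genes, which stands beside its calls of list members. The median efficiency change over all genes was 0.01 on the log2 scale and its quartiles were -0.17 and 0.20. Scaling by library totals alone moved that median by 0.10. By comparison, 10.5% of 14834 genes rose and 12.7% fell in RNA, and 6.00% of 11522 rose and 6.73% fell in footprints. These are the shares of all genes given below for RNA and footprints. Members of gene lists, however, were counted among the 11296 genes tested in both assays. Of those, 1361 rose and 1685 fell in RNA, and 663 rose and 764 fell in footprints. Across the 11296 genes, which are not independent replicates, the RNA and footprint changes had a Pearson r of 0.761. The count of 11 genes became 4 without Eif3m replicate 2 and 7 without Eif3m replicate 3. A limma fit of the log ratios called none of the 11 (1145 of all genes had an unadjusted p below 0.05), with an adjusted p of 0.0929 to 0.346 for the 8 with a name.

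**Figure D1:**
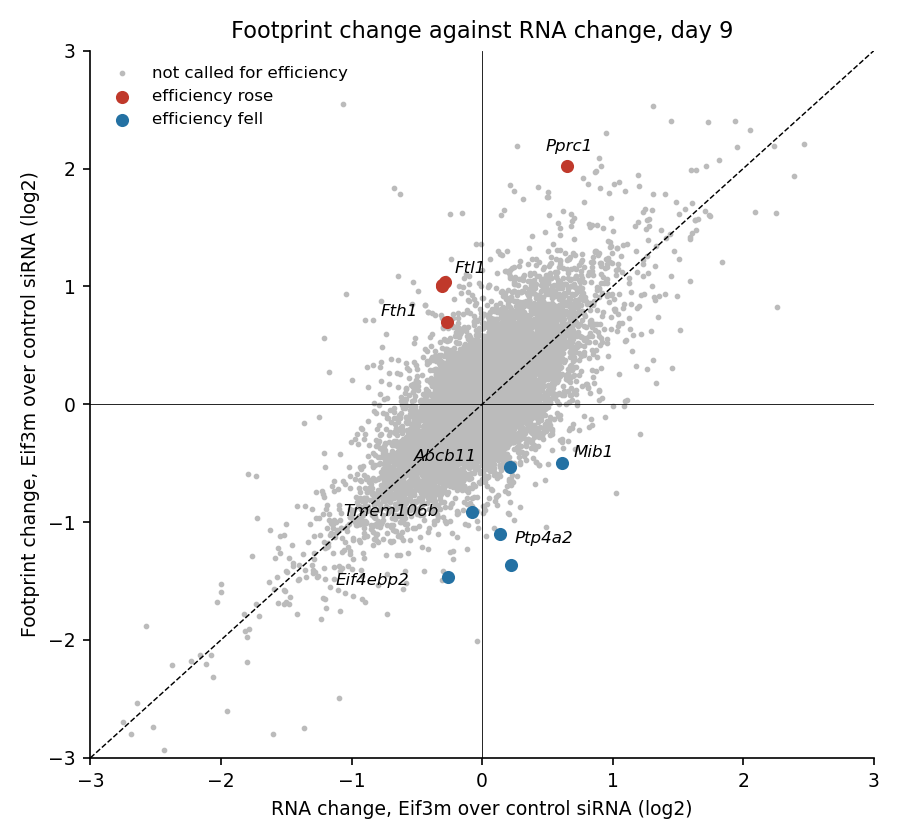
Each point is a gene: the log2 change of its RNA (horizontal axis) and of its footprints (vertical axis), Eif3m over control siRNA at day 9, with a dashed line where both changes are equal and 18 genes outside the axes. Red and blue points are the 5 genes whose efficiency rose and the 6 whose efficiency fell, 3 of them gene models without a name; red points lie above the line and blue points below it.

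The ferritin subunits rose in efficiency. Ftl1 encodes the light chain and Fth1 the heavy chain of ferritin, the iron storage shell, and the iron regulatory proteins are known to hold back translation of both messages by binding a hairpin near their 5′ end when iron is low. The ratio of Ftl1 was 1.09, 0.937 and 1.12 in Eif3m livers, against 0.432, 0.489 and 0.364 in control livers. Every Eif3m animal lay above every control animal, by 2.46-fold in the fit, 1.30 on the log2 scale (SE 0.12, edgeR, adjusted p = 1.84e-05). Its footprints were 1212, 935 and 1330 CPM, against 611, 630 and 484 CPM in controls, and its RNA 1115, 998 and 1186 CPM, against 1417, 1288 and 1332 CPM in controls. Footprints rose by 1.01 and RNA fell by 0.31 on the log2 scale (adjusted p = 0.000768 and 0.0364), so the assays moved in opposite directions.

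Fth1 behaved in the same manner. Its ratio was 0.689, 0.675 and 0.747 in Eif3m livers, against 0.343, 0.437 and 0.312 in control livers, an efficiency rise of 0.96 on the log2 scale (SE 0.12, edgeR, adjusted p = 0.00106). Footprints of Fth1 were 831, 780 and 960 CPM, against 504, 625 and 451 CPM in controls, and RNA 1206, 1157 and 1285 CPM, against 1471, 1431 and 1448 CPM in controls. The groups did not overlap in footprints, in RNA or in the ratio. Leaving out any 1 animal kept both ferritin calls, with a highest adjusted p of 0.000847 for Ftl1 and 0.0198 for Fth1. The call of Fth1 was lost when day 13 shared the estimate of spread (adjusted p = 0.581) and when libraries were not paired by animal (adjusted p = 0.0659). Ftl1 shares reads with a near-identical gene model that is 1 of the 5 rises: the counts of the copies differed by 0.457 to 1.12% in a library, so they are 1 observation.

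The other genes of iron handling did not pass. Of the list of 13, 2 rose, none fell and 11 did not pass, against 0.0443% and 0.0531% of all genes for rises and falls, with a median of 0.13 against 0.01 over all genes. Slc40a1, the iron exporter ferroportin, was at 0.28 (SE 0.12, edgeR, adjusted p = 0.405), and Epas1, whose message also carries a 5′ iron-responsive hairpin, at 0.13 (SE 0.13, adjusted p = 0.749). Tfrc, the transferrin receptor, whose message has such hairpins at its 3′ end, was at -0.48 (SE 0.22, adjusted p = 0.415), with a mean ratio of 1.17 in Eif3m livers and 1.61 in control livers and no overlap between them. The iron regulatory proteins themselves, Aco1 and Ireb2, were at -0.05 and -0.15, neither passing. Macrophages hold ferritin too, and the summed level of 13 monocyte and macrophage markers was higher in the Eif3m group, at 342 to 374 CPM in footprints against 186 to 244 CPM in controls, and at 176 to 192 CPM in RNA against 120 to 142 CPM, with none of the 13 at 0. The sum of the 13 Kupffer cell markers, for the resident macrophages of the liver, overlapped between the groups. It was 587 to 683 CPM in Eif3m RNA, against 618 to 747 CPM, and 946 to 967 CPM in Eif3m footprints, against 803 to 960 CPM. Of these 13, 6 fell and 1 rose in RNA, against 12.7% and 10.5% of all genes. In footprints 4 fell and 1 rose, against 6.73% and 6.00%. The part of either marker set in the ferritin values was not tested.

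**Figure D2:**
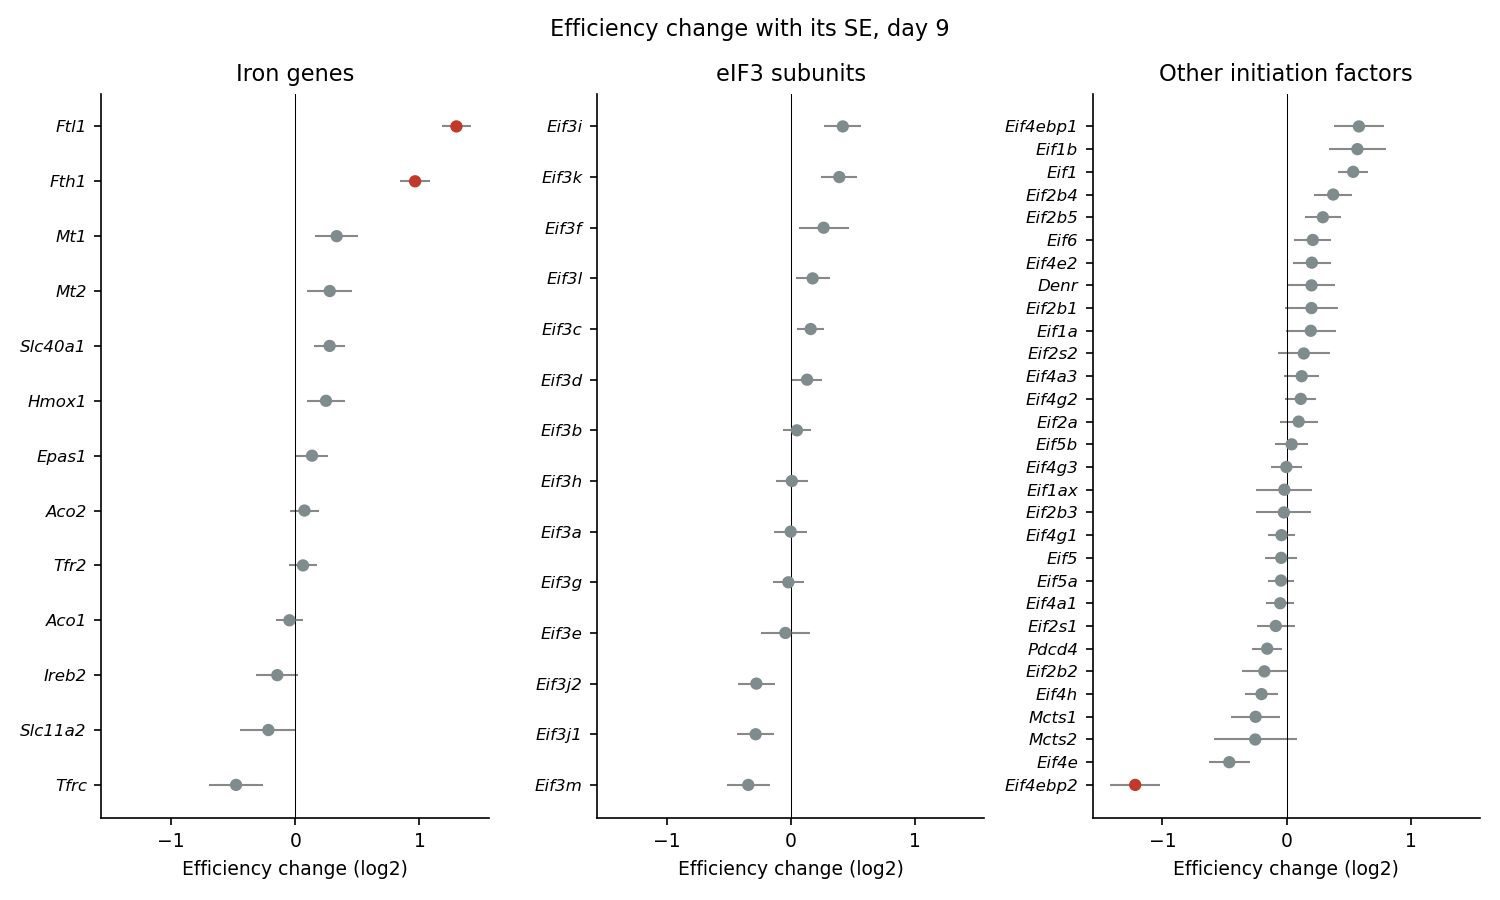
Efficiency change (log2, Eif3m over control siRNA, horizontal axis) with its standard error for 13 iron genes, 14 genes of eIF3 subunits and 30 other initiation factors, 1 row each. Red points passed the test: Ftl1 and Fth1 on the right of 0 and Eif4ebp2 on the left. The 14 genes of eIF3 subunits lie between -0.34 and 0.42.

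The third named rise was Pprc1, which encodes a coactivator of the PGC-1 family that drives nuclear genes for mitochondria. Its ratio was 0.689, 0.537 and 0.648 in Eif3m livers, against 0.232, 0.286 and 0.286 in control livers, without overlap. Its footprints were 10.96, 10.9 and 9.96 CPM, against 2.42, 3.18 and 2.11 CPM, and RNA 16.1, 20.7 and 15.6 CPM, against 12.1, 12.4 and 8.62 CPM in controls. Efficiency rose by 1.37 (SE 0.25, edgeR, adjusted p = 0.0375), RNA by 0.65 and footprints by 2.03 on the log2 scale. The call was lost when any 1 of the 6 animals was left out: the adjusted p became 0.0719, 0.0949 and 0.103 without Eif3m replicates 1, 2 and 3, and 0.190, 0.136 and 0.0755 without control replicates 1, 2 and 3. The adjusted p was 0.200 when libraries were not paired by animal and 0.0534 when day 13 shared the estimate of spread. The change itself was at least 1.26 in the fits with an animal left out.

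The next genes by p among the rises did not pass. Ifrd1, whose message has an upstream open reading frame, had ratios of 0.464, 0.650 and 0.524 in Eif3m livers, against 0.231, 0.359 and 0.242 in control livers. Its efficiency change was 1.09 (SE 0.22, edgeR, adjusted p = 0.0659) on top of an RNA rise of 2.60 and a footprint rise of 3.70. Slc25a39, a mitochondrial carrier that imports glutathione, had ratios of 0.264, 0.286 and 0.232, against 0.176, 0.194 and 0.166 in controls, a change of 0.55 (SE 0.12, adjusted p = 0.0888). For both genes every Eif3m animal lay above every control animal.

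The genes whose efficiency fell had lower footprints at a level of RNA that was not called, with 1 exception. Abcb11 encodes the bile salt export pump of hepatocytes. Its ratio was 0.432, 0.449 and 0.515 in Eif3m livers, against 0.822, 0.744 and 0.806 in control livers, a fall of 0.77 on the log2 scale (SE 0.11, edgeR, adjusted p = 0.00356). Footprints were 214, 348 and 322 CPM, against 415, 393 and 471 CPM, and RNA 497, 775 and 626 CPM, against 505, 528 and 584 CPM in controls, so the RNA ranges overlapped and the footprint ranges did not. The call was lost without Eif3m replicate 2 (adjusted p = 0.0746), when libraries were not paired by animal (adjusted p = 0.419) and when day 13 shared the estimate of spread (adjusted p = 0.106).

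Other genes of bile acid synthesis and transport did not pass. Of 26 tested, 1 fell (0.0531% of all genes did), 25 did not pass, 8 were lower and none higher at an unadjusted p below 0.05, and 8 had ratios in all Eif3m animals below all control animals and 2 above, against 8.86% and 8.14% of all genes. The median was -0.05. The 8 were Abcb11 with 4 further transporters and 3 enzymes. Abcc2, the exporter of conjugated bilirubin, had ratios of 0.790, 0.860 and 1.10, against 1.48, 1.32 and 1.28 in controls (-0.58, SE 0.13, edgeR, adjusted p = 0.0888, called by DESeq2). Unlike Abcb11, its RNA rose by 0.46 (edgeR, adjusted p = 0.0145), and its footprints did not pass at -0.09 (adjusted p = 0.702). Slco1b2, an uptake carrier for organic anions, had ratios of 0.569, 0.718 and 0.843, against 1.12, 1.04 and 0.970 in controls (-0.57, SE 0.12, edgeR, adjusted p = 0.0888). Slco1a4 and the sterol exporter Abcg8 were at -0.44 and -0.33. Abcb4, the phospholipid exporter of the same membrane, was at 0.05, Cyp7a1, the rate-limiting enzyme of bile acid synthesis, at 0.02, and Slc10a1, which takes up bile acids from blood, at -0.14.

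Ptp4a2 encodes a phosphatase of the PRL family. Its ratio was 0.162, 0.160 and 0.145 in Eif3m livers, against 0.331, 0.331 and 0.416 in control livers, a fall of 1.25 (SE 0.18, edgeR, adjusted p = 0.00462). RNA was 53.7, 49.5 and 52.3 CPM, against 43.9, 49.1 and 46.3 CPM, while footprints were 8.27, 7.51 and 7.16 CPM, against 14.2, 15.9 and 19.0 CPM in controls. The footprint ranges lay well apart. The adjusted p was 0.0746 without Eif3m replicate 2, 0.0694 without Eif3m replicate 3 and 0.106 when day 13 shared the estimate of spread.

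Eif4ebp2 encodes a 4E-BP, one of the proteins that keep the cap-binding factor eIF4E from assembling the initiation complex until mTORC1 phosphorylates them. Its ratio was 0.395, 0.342 and 0.362 in Eif3m livers, against 1.11, 0.693 and 0.731 in control livers, a fall of 1.22 (SE 0.20, edgeR, adjusted p = 0.0205). Footprints were 10.5, 9.57 and 10.1 CPM, against 32.7, 23.4 and 27.2 CPM, and RNA 27.5, 28.9 and 28.8 CPM, against 29.4, 34.0 and 37.5 CPM in controls. Control replicate 1 stood above the other controls in the ratio, and all 3 controls stood above the Eif3m animals. The adjusted p was 0.267 without Eif3m replicate 2, 0.103 without Eif3m replicate 3 and 0.0534 when day 13 shared the estimate of spread.

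Mib1, an E3 ubiquitin ligase that acts on Notch ligands, was the exception in RNA. Its ratio was 0.778, 0.826 and 0.708 in Eif3m livers, against 1.80, 1.51 and 1.74 in control livers, a fall of 1.14 (SE 0.15, edgeR, adjusted p = 0.00204). RNA rose by 0.61 (adjusted p = 0.0118) while footprints fell by 0.50 (adjusted p = 0.0494). RNA was 38.1, 41.3 and 34.5 CPM, against 19.9, 28.1 and 25.6 CPM, and footprints 29.6, 34.0 and 24.3 CPM, against 36.3, 42.6 and 45.0 CPM in controls. Leaving out any 1 animal kept the call (highest adjusted p = 0.0372), and not pairing libraries by animal ended it (adjusted p = 0.0659).

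Tmem106b, a lysosomal membrane protein, had ratios of 0.923, 1.02 and 1.12 in Eif3m livers, against 2.23, 1.57 and 1.87 in control livers. Efficiency fell by 0.88 (SE 0.15, edgeR, adjusted p = 0.0286) and footprints by 0.91, with 45.9, 49.9 and 59.8 CPM against 94.2, 100.4 and 98.4 CPM in controls. RNA differed by -0.08 and overlapped between the groups. The call held in 1 of the 6 fits with an animal left out. The adjusted p was 0.0701, 0.267 and 0.0906 without Eif3m replicates 1, 2 and 3, and 0.0897 and 0.0755 without control replicates 1 and 3. The adjusted p was also 0.0521 with library totals, 0.221 when libraries were not paired by animal and 0.106 when day 13 shared the estimate of spread.

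**Figure D3:**
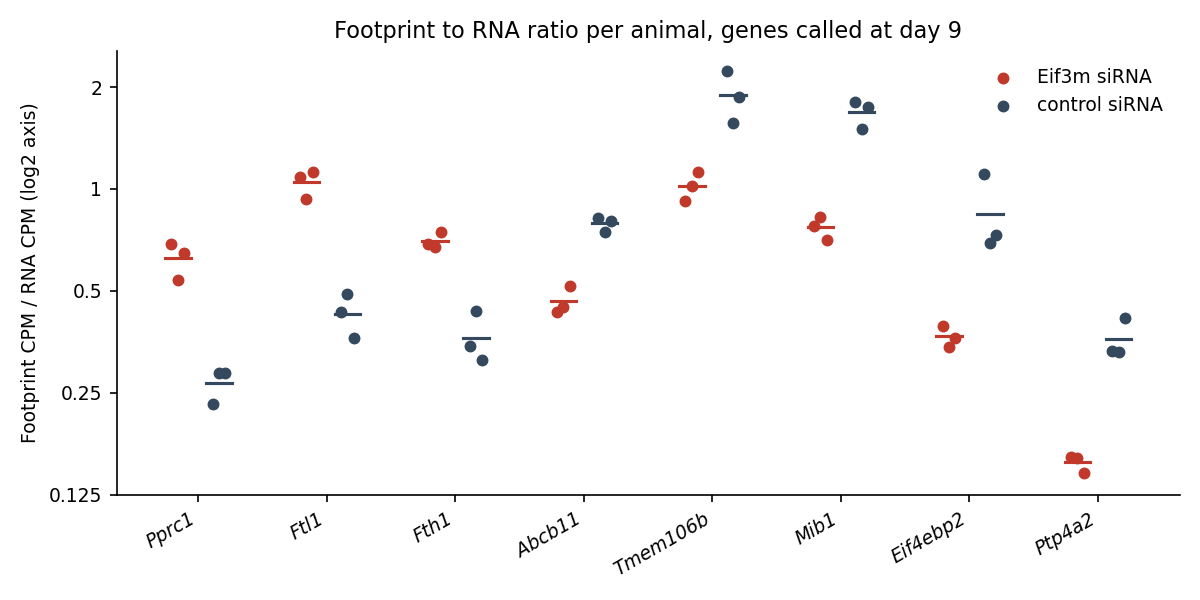
Footprint CPM over RNA CPM on a log2 axis for the 8 named genes called at day 9, with 1 point per animal, 3 per group, and a bar at the mean; Eif3m animals are red and stand left of the control animals. For each gene, all 3 Eif3m animals lie on 1 side of all 3 control animals.

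Read by assay, all 11 called genes had footprints called in the direction of the efficiency change. Of the 5 rises, RNA fell for 3 (Ftl1, its copy and Fth1), rose for Pprc1 and was not called for the remaining gene model. Of the 6 falls, RNA rose for Mib1 and was not called for 5. The same footprint counts enter both calls, so this is a description. Among the 1361 tested genes whose RNA rose, the median efficiency change was -0.04, and among the 1685 whose RNA fell it was 0.04, beside 0.01 over all genes. Of the 1361, 94 had all Eif3m ratios above all controls and 175 below. Of the 1685, 197 had them above and 137 below, against 8.14% and 8.86% of all genes. The same RNA counts enter the choice of genes and the ratio, so these values too are a description.

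No efficiency change of a subunit of the eIF3 complex passed the test. Of the 14 genes for its subunits, 2 were higher at an unadjusted p below 0.05 and DESeq2 called none. Their median was 0.03, and the range ran from Eif3m at -0.34 to Eif3i, one of the subunits with a propeller fold, at 0.42 (SE 0.15, edgeR, adjusted p = 0.291). Eif3a, which scaffolds the complex, had ratios of 0.502, 0.445 and 0.534 in Eif3m livers, against 0.435, 0.465 and 0.592 in control livers, a difference of -0.0024. Eif3c had 1.18, 1.29 and 1.31, against 1.15, 1.06 and 1.17, without overlap (0.16, SE 0.11, adjusted p = 0.612). Eif3f, which binds Eif3m in the octamer core, was at 0.26 (SE 0.20, adjusted p = 0.665) with overlapping animals, as were Eif3e and Eif3h at -0.04 and 0.01. Eif3j1 and Eif3j2 are near-identical copies that share reads, and both stood at -0.28 with lower ratios in all Eif3m animals. Each is counted among the 14 genes, although the copies are 1 observation. In RNA 7 of the 14 rose and 1, the target, fell, against 10.5% and 12.7% of all genes.

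Among 30 other initiation factors, 1 fell (Eif4ebp2), none rose and 29 did not pass, against 0.0531% and 0.0443% of all genes for falls and rises, with a median of 0.02. Eif1, which guards start codon choice and is known to be limited by its own poor start codon context, had ratios of 2.20, 2.17 and 2.19 in Eif3m livers, against 1.34, 1.44 and 1.78 in control livers (0.54, SE 0.12, edgeR, adjusted p = 0.0894), and DESeq2 called it. Its paralog Eif1b was at 0.57 (SE 0.23, adjusted p = 0.352). Eif4ebp1, the other 4E-BP of the list, stood on the opposite side from Eif4ebp2, at 0.58 (SE 0.20, adjusted p = 0.264), with mean ratios of 1.11 in Eif3m livers and 0.747 in control livers and no overlap. The cap-binding protein Eif4e was at -0.46 (SE 0.17, adjusted p = 0.294), with mean ratios of 0.764 and, in controls, 1.06. The eIF2B subunits Eif2b4 and Eif2b5, parts of the exchange factor that recharges eIF2, were at 0.38 and 0.29, while the scaffold Eif4g1 was at -0.04 and the helicase Eif4a1 at -0.05.

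Cytosolic ribosomal protein messages were the gene group whose median lay farthest above that of all genes among the translation lists, but 1 control animal lay among the Eif3m animals. These messages begin with a run of pyrimidines, the 5′ terminal oligopyrimidine or TOP motif, through which mTORC1 is known to control their translation. Such a run of at least 7 letters C or T, searched on the gene's strand within 15 bases of the RefSeq start (GRCm38.p6), was held by 35 of 70 windows of the tested ribosomal protein genes and by 18.6% of all 32851 windows of the table. The windows below belong to 3 of the 9 ribosomal protein genes whose animals did not overlap. They were chosen because they hold such a run, so they are not typical of the 9. The others of the 9, Rps3a1 among them, gave no window with such a run, with 1 chromosome left out of the choice. Whether those genes lack a window or lack a run is not given here. The longest run is in capitals, and the windows read 5′ to 3′. The RefSeq start follows the first 15 bases of each window. The run of Rpl4 lies wholly before that start. The runs of Rpl13a and Rps12 lie after it and end at the window's edge. The marked runs therefore do not place a pyrimidine run at the start itself.
Rpl13a (GRCm38.p6, chr7:45128731-45128760, minus strand): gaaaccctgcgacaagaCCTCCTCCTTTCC
Rpl4 (GRCm38.p6, chr9:64173372-64173401, plus strand): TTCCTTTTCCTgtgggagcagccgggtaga
Rps12 (GRCm38.p6, chr10:23787195-23787224, minus strand): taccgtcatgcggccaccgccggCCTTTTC

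Of 77 tested ribosomal proteins of both subunits, none passed (edgeR; 33 were higher and none lower at an unadjusted p below 0.05, and DESeq2 called none), the median was 0.37, and 71 were above 0, while 69 rose in RNA and 54 in footprints, against 10.5% and 6.00% of all genes. The ratios of all Eif3m animals lay above all control animals for 9 of 77 and below for none, against 8.14% and 8.86% of all genes. The median log2 ratio of the large-subunit proteins, relative to the control mean, was 0.59, 0.21 and 0.20 in Eif3m replicates 1, 2 and 3, against -0.27, -0.13 and 0.39 in control replicates 1, 2 and 3. Control replicate 3 thus lay above Eif3m replicates 2 and 3, and the groups overlapped. The small-subunit proteins gave 0.54, 0.18 and 0.28, against -0.18, -0.14 and 0.35, and the 18 other TOP messages, with a median of 0.15, gave 0.33, 0.06 and 0.11, against -0.18, -0.09 and 0.28. Many ribosomal protein genes share reads with processed pseudogenes, so their levels are uncertain.

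In Rpl13a, Rps3a1 and Rpl4, control replicate 3 was the highest control animal. Rpl13a had ratios of 0.273, 0.229 and 0.198 in Eif3m livers, against 0.130, 0.127 and 0.184 in control livers (0.68, SE 0.16, edgeR, adjusted p = 0.106). Rps3a1 had 0.483, 0.437 and 0.365, against 0.274, 0.258 and 0.337 (0.57, SE 0.13, adjusted p = 0.106), and Rpl4 had 0.400, 0.363 and 0.368, against 0.247, 0.243 and 0.351 (0.45, SE 0.13, adjusted p = 0.208). In each the lowest Eif3m animal stood only slightly above control replicate 3. Among elongation factors with TOP motifs, Eef1a1, which delivers aminoacyl-tRNA, had ratios of 0.282, 0.157 and 0.195, against 0.147, 0.156 and 0.265, and Eef2, the translocase, 0.343, 0.163 and 0.216, against 0.107, 0.157 and 0.245, both with overlap.

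Mitochondrial ribosomal proteins, which are made in the cytosol and imported, showed a smaller shift with a narrower spread. Of 76 tested, none passed (9 were higher and none lower at an unadjusted p below 0.05, and DESeq2 called none), the median was 0.13, and 17 had all Eif3m animals above all controls while 1 had them below, against 8.14% and 8.86% of all genes. The list median was 0.20, 0.18 and 0.08 in Eif3m animals, against -0.05, 0.03 and 0.04 in control animals, without overlap. Mrps12, Mrpl54 and Mrpl20 were at 0.69, 0.64 and 0.57 (edgeR, adjusted p = 0.197, 0.197 and 0.234). Of 75 nuclear-encoded respiratory chain subunits, none passed, and DESeq2 called none. At an unadjusted p below 0.05, 5 were higher and none lower, against 608 and 680 of all 11296 genes. The median was 0.08, while 39 fell in RNA and none rose, against 12.7% and 10.5% of all genes.

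Secreted plasma proteins lay on the other side. Of 38 coagulation and complement genes, none passed (13 were lower and none higher at an unadjusted p below 0.05, and DESeq2 called C9), the median was -0.15 and 34 were below 0. For 15 of the 38 all Eif3m animals lay below all controls and for none above, against 8.86% and 8.14% of all genes. The list median was -0.31, -0.15 and -0.08 in Eif3m animals, against 0.02, 0.00 and 0.01 in control animals, so the groups did not overlap, although Eif3m animals spread more than controls. C9, a pore-forming complement component, had ratios of 0.503, 0.560 and 0.631 in Eif3m livers, against 0.874, 0.783 and 0.812 in control livers (-0.55, SE 0.11, edgeR, adjusted p = 0.0658). The fibrinogen gamma chain Fgg had 0.683, 0.674 and 0.732, against 1.02, 0.913 and 0.886 (-0.43, SE 0.09, adjusted p = 0.0841), whereas the beta chain Fgb had 0.849, 1.00 and 1.00, against 1.05, 1.05 and 1.05 (-0.15, SE 0.09, adjusted p = 0.553). C3, the central complement protein, overlapped, with 0.769, 0.694 and 0.823 against 0.774, 0.655 and 0.816.

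The 32 tested plasma carriers and acute phase proteins had a median of -0.12, 28 below 0, 8 with all Eif3m animals below all controls and none above, against 8.86% and 8.14% of all genes, and none passing (7 were lower at an unadjusted p below 0.05, and DESeq2 called Saa4). Saa4, a constitutive serum amyloid A, had ratios of 0.901, 0.785 and 0.888 in Eif3m livers, against 1.30, 1.44 and 1.24 in control livers (-0.63, SE 0.12, edgeR, adjusted p = 0.0515). Albumin was at 0.949, 0.914 and 1.07, against 1.08, 1.10 and 1.29, a difference of -0.24 (SE 0.09, adjusted p = 0.294), while Trf, the iron carrier transferrin, overlapped at 0.639, 0.607 and 0.628 against 0.610, 0.645 and 0.738. Apolipoproteins had a median of -0.06 over 13 genes, none passing, with Apob, the scaffold of very low density lipoprotein, at -0.39 and Apoa4 at 0.25. Genes for folding in the endoplasmic reticulum, through which secreted proteins pass, had a median of -0.13 over 23 genes, with 7 below in all Eif3m animals and 3 above, against 8.86% and 8.14% of all genes, and none passing (3 lower and 1 higher at an unadjusted p below 0.05, none called by DESeq2). The lectin chaperone Canx was at -0.33 (SE 0.12, adjusted p = 0.285) and the disulfide isomerase P4hb at -0.24 (SE 0.09, adjusted p = 0.323). Of 11 hepatocyte markers, 4 fell in RNA (Alb, Ttr, Asgr1 and Asgr2) and 2 in footprints (Alb and Ttr), against 12.7% and 6.73% of all genes. Their sum, most of which is albumin, was 115142 to 136116 CPM against 170039 to 206121 CPM in footprints and 114980 to 123102 CPM against 148925 to 158849 CPM in RNA, each with the Eif3m group lower, and its part in these ratios was not tested.

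**Figure D4:**
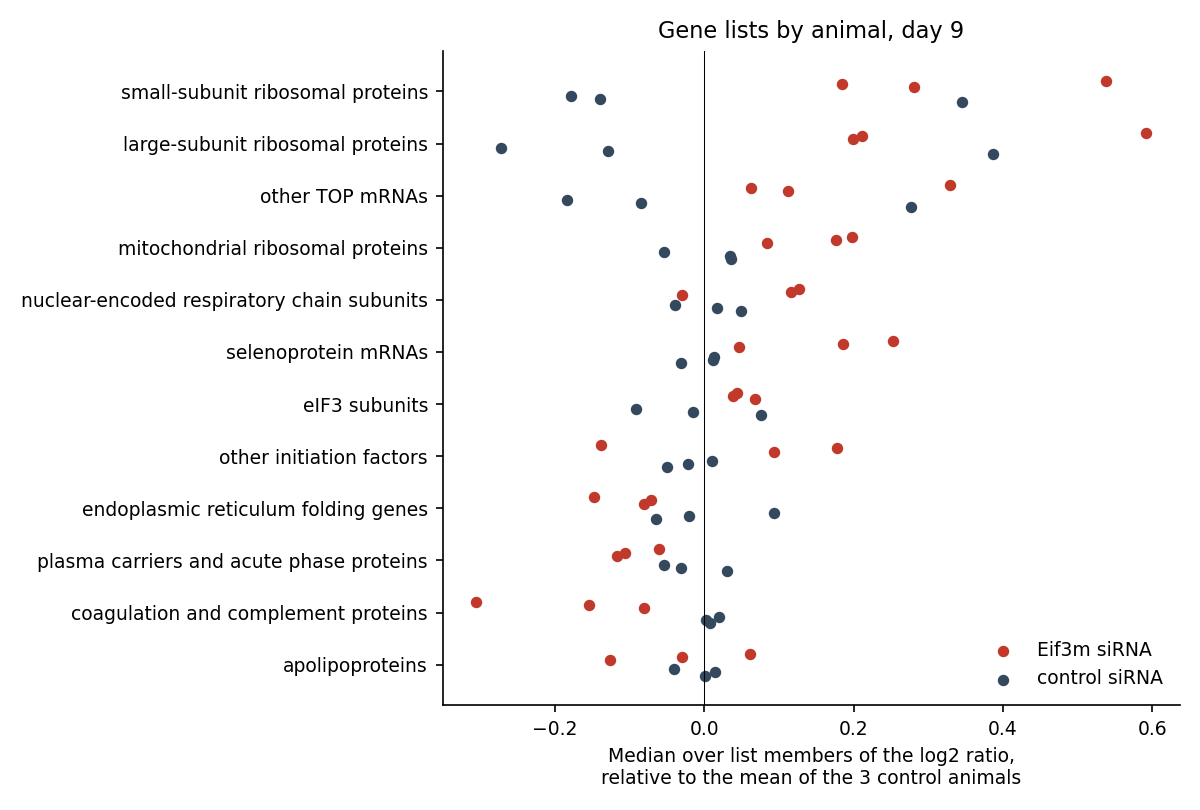
Median over the members of a gene list of the log2 footprint to RNA ratio, relative to the mean of the 3 control animals (horizontal axis), for 12 lists; each point is an animal, Eif3m in red above control in dark blue. In the ribosomal protein and TOP lists 1 control animal lies among the Eif3m animals, whereas mitochondrial ribosomal proteins and coagulation and complement proteins do not overlap. Selenoprotein messages, plasma carriers and acute phase proteins, and endoplasmic reticulum folding genes do not overlap either, with a narrow gap for plasma carriers and for folding genes.

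Messages with upstream open reading frames that are known to gain ribosomes when eIF2 is phosphorylated did not pass. Of 14, 11 were tested (3 were higher at an unadjusted p below 0.05, and DESeq2 called Ifrd1), with a median of 0.18, and 4 had all Eif3m animals above all controls and none below, against 8.14% and 8.86% of all genes. Apart from Ifrd1, Gadd45a, a growth arrest gene, was at 0.61 (SE 0.20, edgeR, adjusted p = 0.257) and Ddit3, the stress factor CHOP, at 0.94 (SE 0.46, adjusted p = 0.448), each on top of an RNA rise, of 1.20 and 2.63. Atf4, the central factor of the response, had mean ratios of 0.153 in Eif3m livers and 0.156 in control livers, a difference of -0.02 (SE 0.18, edgeR, adjusted p = 0.982), and its RNA did not pass at -0.31. Atf5 was at 0.18 in efficiency while its RNA rose by 1.95 and its footprints by 2.18.

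Over all 43 gene lists, 4 of 977 distinct tested members were called, and 40 lists held none. The lowest list median was -0.42, for replication-dependent histones, with 8 tested. None of them passed, and DESeq2 called none, with 4 lower and 0 higher at an unadjusted p below 0.05. For 2 of the 8 all Eif3m animals lay below all controls, against 8.86% of all genes. In RNA 5 of the 8 rose, against 10.5% of all genes. The 18 remaining pathway lists with at least 3 tested genes, 459 tested places in all, held none, and DESeq2 called Igf1. At an unadjusted p below 0.05, 24 were higher and 25 lower, a share close to that of all genes (608 and 680 of 11296). The medians of these pathway lists ran from -0.18 for fatty acid and triglyceride synthesis to 0.17 for selenoprotein messages. Cholesterol synthesis genes fell in RNA for 12 of 25 and in footprints for 11, against 12.7% and 6.73% of all genes, with a median efficiency change of -0.08. Targets of p53 rose in RNA for 12 of 22 and fell for 4, against 10.5% and 12.7% of all genes, with a median efficiency change of 0.02. Genes of stellate cells, the matrix-forming cells of the liver, had a median efficiency change of 0.36 over 14 tested, none passing (3 higher at an unadjusted p below 0.05, none called by DESeq2), and 5 had all Eif3m animals above all controls, against 8.14% of all genes. Their summed level was 942 to 1044 CPM in Eif3m footprints, against 772 to 836 CPM in control footprints, and 465 to 533 CPM in Eif3m RNA, against 407 to 486 CPM in control RNA. Kupffer cell markers, for the resident macrophages of the liver, had a median of 0.18 over 13 tested, none passing (5 higher at an unadjusted p below 0.05, none called by DESeq2).

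At day 13 other animals, 2 per group, were measured with another RNA kit, so the day and the kit cannot be told apart. Library totals at day 13 were 1.63 and 6.52 M counts for Eif3m footprints, against 1.97 and 2.12 M for control footprints. For RNA they were 19.8 and 4.96 M with Eif3m siRNA, against 26.4 and 24.3 M in controls. Depth thus differed between the siRNA groups and from day 9. The change differed between the days for 5 of 11970 genes (0.0418%), 2 higher (0.0167%) and 3 lower (0.0251%) at day 13, none of them called at day 9. Of the 8 named genes called at day 9, 7 had the same sign at day 13. With the 3 gene models, 1 of them the copy of Ftl1, it was 9 of 11. The share of all genes with the same sign on both days was not counted. Ftl1 had ratios of 2.51 and 1.98 with Eif3m siRNA, against 1.32 and 1.20 in controls, a change of 0.82 (SE 0.20, edgeR, adjusted p = 0.103), and Fth1 0.592 and 0.280, against 0.629 and 0.196, a change of 0.18 (SE 0.47, adjusted p = 0.916). Footprints of Ftl1 at day 13 were 409 and 390 CPM with Eif3m siRNA, against 586 and 235 CPM in controls. Its RNA was 163 and 197 CPM, against 443 and 195 CPM, so each assay alone overlapped between the groups. Mib1 was at -1.06, Abcb11 at -0.70, Tmem106b at -0.62, Ptp4a2 at -2.60 and Pprc1 at 0.57, and Eif4ebp2 at 0.21, which is the opposite sign from day 9. None of these 8 differed between the days past the test (adjusted p between 0.661 and 0.989), which with 2 animals per group does not show that they were alike. Ribosomal proteins had a median of 0.06 at day 13 and coagulation and complement proteins one of -0.30, beside 0.09 over all genes.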

How the data were processed

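Livers of 6 mice gave 12 day 9 libraries, grouped by siRNA and assay from the labels. The authors deposited expected counts for each gene symbol. Per the submitters' processing notes, cutadapt, Bowtie and Bowtie2 were used; build and counting rule: not given in the sources used here. Per the labels' protocols, day 9 RNA used KAPA mRNA capture, day 13 RNA NeoPrep and footprints Epicenter ART-seq. Of nonzero values 44.3% were not whole, and counts were rounded.

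Efficiency was the interaction of assay and siRNA in edgeR 4.0.16 (R 4.3.3; robust two-sided quasi-likelihood test, animal as block, TMM within assay, filterByExpr in both assays, Benjamini-Hochberg over all genes, threshold 0.05). RNA and footprints were also fitted alone, and the days compared over 20 libraries. Standard errors were derived from the F statistic. Ratios per animal are scaled CPM with 0.5 CPM added to both sides. An exact test of 3 against 3 animals cannot go below p = 0.1. Pairing comes from the animal names: RNA and footprint deviations of an animal correlated at 0.115 to 0.404, in 6 of 6 animals best with each other.

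The genes, lists and alternatives were chosen with earlier results of these data known. Named genes are the eIF3 subunits, up to 12 called genes in a direction, the 5 smallest p where fewer than 5 passed, and of each list up to 4 called members or the 2 most abundant; other list members named (C9, Fgg, Saa4, Eif1, Rpl13a and the like) were chosen after their values were seen. Alternatives were other scalings and filters, DESeq2 1.42.0, limma 3.58.1, other blocks, all 20 libraries, each animal left out and, added after seeing the data, Ftl1 summed with its copy.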

Additional observations from a re-analysis of the deposited data

Results flagged for a closer look

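The efficiency change differed between day 13 and day 9 past the test (edgeR, adjusted p below 0.05) for 5 genes, 2 higher and 3 lower at day 13, of 11970 tested (0.0167% and 0.0251%), with day and RNA kit confounded, so that they cannot be told apart. The fit that does not pair the libraries of an animal called 0 genes with edgeR (643 at an unadjusted p below 0.05), and DESeq2 with the pairing called 5. Hamp2, a relative of the iron hormone hepcidin, differed by 1.63 (adjusted p = 0.0410): its change was 1.94 at day 13, with ratios of 24.2 and 20.1 against 7.14 and 4.72 in controls, and 0.30 at day 9, with 6.90, 6.54 and 5.20 against 5.00, 5.37 and 4.67. Its RNA was 50.2 and 117 CPM in Eif3m livers at day 13, against 138 and 397 CPM in controls. Pabpc1, the cytoplasmic poly(A)-binding protein, differed by -2.25 (adjusted p = 0.0410), with ratios of 0.0576 and 0.0621 against 0.189 and 0.340 at day 13, and 0.225, 0.1249 and 0.199 against 0.121, 0.145 and 0.233 at day 9. Ugt1a2 and Ugt1a5, glucuronidation enzymes of 1 gene cluster with shared exons and hence uncertain counts, differed by -3.22 and -2.61 (adjusted p = 0.0410 each). Over both siRNA groups, RNA of Ugt1a2 was 0.342 to 3.06 CPM at day 9 and 95.5 to 157 CPM at day 13. That of Ugt1a5 was 3.05 to 36.4 CPM at day 9 and 97.4 to 173 CPM at day 13. Footprints of Ugt1a2 in Eif3m livers at day 13 were only 1.15 and 1.09 CPM. Tuba8, a tubulin, differed by 4.39 (adjusted p = 0.0435), with footprints of at most 2.06 CPM in any day 9 animal.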

How the results depend on the processing

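The count of 11 efficiency changes at day 9 was 11 with DESeq2 size factors, 14 with library totals (9 rose, 5 fell), 10 at a mean of at least 5 CPM and 10 with Ftl1 and its copy summed. Against 5 rises and 6 falls, it was 247 with no filter beyond 1 count (68 rose, 179 fell), 33 with DESeq2 (12 rose, 21 fell), 20 with TMM over all 12 libraries (6 rose, 14 fell), 3 with all 20 libraries and 0 with limma (1145 genes at an unadjusted p below 0.05). With no replicate block, that is without pairing by animal, it was 4. The replicate block between siRNA groups also gave 4; same-numbered animals had ratio deviations with r of -0.235 to -0.03, 0 of 3 best with its own number, so they share only a number. Leaving out 1 animal gave 4 to 11 efficiency changes, 2182 to 3007 RNA changes and 754 to 2011 footprint changes.

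RNA changes numbered 3445, and 932 with both days in 1 fit; library totals made 71.7% of RNA changes rises, against 45.3%. Footprint changes numbered 1466, and 2310 with library totals (82.5% rises, against 47.1%). For the difference between days, 5 genes became 1 with library totals, 26 with no filter and 0 with no replicate block, and 0 to 160 with 1 animal left out (160 without day 13 control replicate 2).

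Genes called in both efficiency and footprints, 11, numbered 142 with no filter, 27 with DESeq2, 18 with TMM over all 12 libraries, 4 with no replicate block, 4 with the replicate block between siRNA groups, 3 with all 20 libraries, 0 with limma and 4 to 9 with 1 animal left out. List members called, 4, numbered 52, 10, 2, 2, 1 and 0 with no filter, DESeq2, no replicate block, the replicate block between siRNA groups, all 20 libraries and limma, and 2 to 6 with 1 animal left out. Of 1694 values for 100 named genes over these settings, 0 changed sign while called, 41 lost a call and 12 gained one. Another 10 changed sign uncalled, by at least the spread between animals. Only the 8 named genes called in the main fit could lose a call, and each was fitted in 17 settings. Ftl1 kept its call in 16 of these, and Pprc1 and Tmem106b in 7 each. The cause of these shifts was not tested, and no alternative varied depth.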
